A study of Mus musculus with 26 samples.

Results

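The mouse genome names a large set of genes Zfp plus a number, for zinc finger protein, and these numbered Zfp genes were followed in TCRTg101, CD8+ T cells with a transgenic receptor that recognizes an antigen of the murine leukemia C1498. The genes were selected on their measured counts. A protein-coding gene with such a symbol was kept where its estimated counts reached 10 in at least 6 of 14 libraries, whatever their group, and 351 of 394 passed, among 15395 genes of all kinds that passed the same rule. Of the 351, 315 had 10 counts in all 14 libraries, and the other 36 missed that level in 1 to 8 libraries.

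TCRTg101 came from Tg101 mice bred on a Rag2-/- background, so that every cell carries the same receptor. The paper's methods describe transfer of the cells into B6.SJL or C57BL/6 mice. The labels give all samples as C57BL/6, 6 week old and wild type. There were 3 control libraries from spleen, of which controls 1 and 2 were naive Tg101 cells of day 0 and control 3 was from untreated mice at day 18. From leukemia-bearing mice there were 2 early (day 7), 3 mid (days 13, 13 and 14) and 2 late (days 18 and 16) libraries from liver, 2 early libraries (day 7) and 1 mid library (day 14) from spleen, and 1 spleen library of undivided cells at day 18, sorted for high CellTrace Violet, a dye that is diluted at each division. All control libraries were from spleen, so that leukemia, division and tissue cannot be told apart when liver libraries are compared with them. Controls 1 and 2, of day 0, also differ from the liver libraries in time after transfer. A further day 0 library made by oligo-dT priming took no part in the selection or the tests.

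Most numbered Zfp genes encode C2H2 zinc fingers, short loops folded around a zinc ion that read DNA a few bases at a time, usually in tandem arrays. Many of these arrays are joined to a KRAB domain, which recruits the corepressor Trim28 and with it histone deacetylases, the methyltransferase Setdb1 and heterochromatin proteins. KRAB zinc finger proteins are known for silencing retroelements and for keeping imprints, and their genes lie in clusters that arose by duplication. A small group under the same kind of symbol, the CCCH proteins Zfp36, Zfp36l1 and Zfp36l2, bind RNA instead and shorten the life of cytokine messages in T cells.

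By their GENCODE coding sequences, 208 of the 351 genes encoded a KRAB domain, called where at least 7 of 9 fixed letters of the domain were present. C2H2 fingers without a called KRAB domain were encoded by 135, CCCH fingers by 3 and neither by 5. The median number of C2H2 fingers was 11 and the highest 37. Near-identical copies can share reads: a median of 2.73% of the 31-base words of a gene's transcripts also occurred in another gene, and in 51 genes at least 30% did, so that the counts of those 51 are less certain.

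Depth ranged from 22918996 to 71358287 estimated counts per library (median 34349318). CD8 T cell genes (Cd3e, Cd3d, Cd3g, Cd8a, Cd8b1, Trac and Lck) were all present, with a summed level of 4770 to 7610 CPM (counts scaled to the library total) in each library. Hemoglobin genes summed to 5320 and 20800 CPM in controls 1 and 2 and to 149 in control 3, and 6 myeloid genes to 387, 93.4 and 9.15. Hepatocyte genes summed to at most 0.25 CPM in controls, 1.95 and 7.1 in early, 2.49 to 131 in mid and 59.8 and 200 in late liver libraries. The 7 proliferation genes (Mki67, Top2a and others) summed to 223 to 287 in controls, 863 and 204 in early, 901 to 1740 in mid and 1590 and 1620 in late liver libraries. Early spleen library 2 stood apart, with 30321 genes above 0 against at most 25980 elsewhere. The part of these signals in the results was not tested. In bulk RNA, fewer cells of a type and less RNA per cell cannot be told apart.

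Just inside the count rule, with 10 counts in 6 libraries, were Zfp618 and Zfp820. Just outside, with 10 counts in 5, were Zfp385a, Zfp532 and Zfp982. Zfp385a had 199 and 131 counts in controls 1 and 2 and 1 in control 3. Zfp366, known from dendritic cells and inside the rule with 7 libraries, had 275, 470 and 7 in the same order. Both genes were high in the 2 controls with more hemoglobin and myeloid RNA. Of the 43 genes below the rule, 11 reached 10 counts in no library, and 30 reached it in early spleen library 2.

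On the TPM scale, which corrects for transcript length and allows comparison between genes, the median of the 351 genes in controls was 4.14 TPM, against 7.67 over all genes tested. The highest were Zfp36l2 at 233 ± 139 (SD, n = 3), Zfp706 at 185 ± 7.23, Zfp280d at 182 ± 63.7, Zfp36 at 101 ± 33.5, Zfp207 at 81.8 ± 15.8 and Zfp131 at 65.9 ± 16.5. Given the spread of Zfp36l2 and Zfp280d, the order of the first 3 was not resolved. Genes with a KRAB domain had a median of 3 TPM and C2H2 genes without one 9.77. At the other end, 71 genes were below 1 TPM.

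In late liver libraries most numbered Zfp genes were lower than in controls. By edgeR's quasi-likelihood test, with the sequencing series as a covariate and p-values adjusted over all 15395 genes, 105 of 351 genes (29.9%) fell and 15 (4.27%) rose at an adjusted p under 0.05. Over all genes tested 14.4% fell and 20.0% rose, 34.4% in either direction against 34.2% of the numbered Zfp genes. The median log2 fold change was -0.60, against -0.04 over all genes, and 268 of 351 values were below 0. Among the 315 genes with 10 counts in every library 99 fell and 14 rose, with a median of -0.57. Both late libraries lay below all 3 controls for 177 genes (50.4%) and above them for 38 (10.8%), where 28.2% and 27.9% of all genes did.

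The number of calls rested on single libraries, while the median stayed below 0. Without late library 1 there were 7 calls, 4 lower and 3 higher (4.38% of all genes called), so that the split of the calls was then near even. Without late library 2 there were 0 (0% of all genes), with 112 of the 351 at an unadjusted p under 0.05. Without control 1 there were 21 calls, 17 of them lower, and without control 2 or 3 there were 88 and 89, where 8.54%, 23.6% and 28.5% of all genes were called. The number of calls thus dropped over all genes as well. Counts at an unadjusted p under 0.05 pool both directions. In the main fit 167 of the 351 and 7289 of all 15395 genes reached that level, near alike shares. Such counts are therefore no result about the numbered Zfp genes. With control 3 as the only control there were 0 calls, 73 at an unadjusted p under 0.05 and a median of -0.49. The median lay between -0.64 and -0.50 whichever late or control library was left out, and all genes stayed near 0 (-0.06 to -0.02). DESeq2's Wald test gave 149 calls, of which 128 were lower, and called 40.8% of all genes, 2825 lower and 3462 higher. Scaling by library size alone moved the median of all genes to -0.35 and that of the numbered Zfp genes to -0.91, with 159 lower and 8 higher. Over all genes that scaling turned 3078 higher and 2211 lower calls into 1967 and 3493.

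The same could be read library by library. The median of log2 CPM minus the control mean was -0.07, 0.05 and 0.04 in controls 1 to 3, and 0.09 in the undivided cells. It was 0.11 and 0.14 in the early and -0.11 in the day 14 spleen libraries. In liver it was -0.25 and -0.04 early, -0.68, -0.21 and -0.49 mid, and -0.73 and -0.45 late. All mid and late liver libraries were thus below all controls. As a share of all counts, these genes took 0.774%, 0.983% and 0.939% in controls, 0.435%, 0.746% and 0.634% in mid and 0.407% and 0.7% in late libraries. The groups did not overlap on that scale either.

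**Figure D1:**
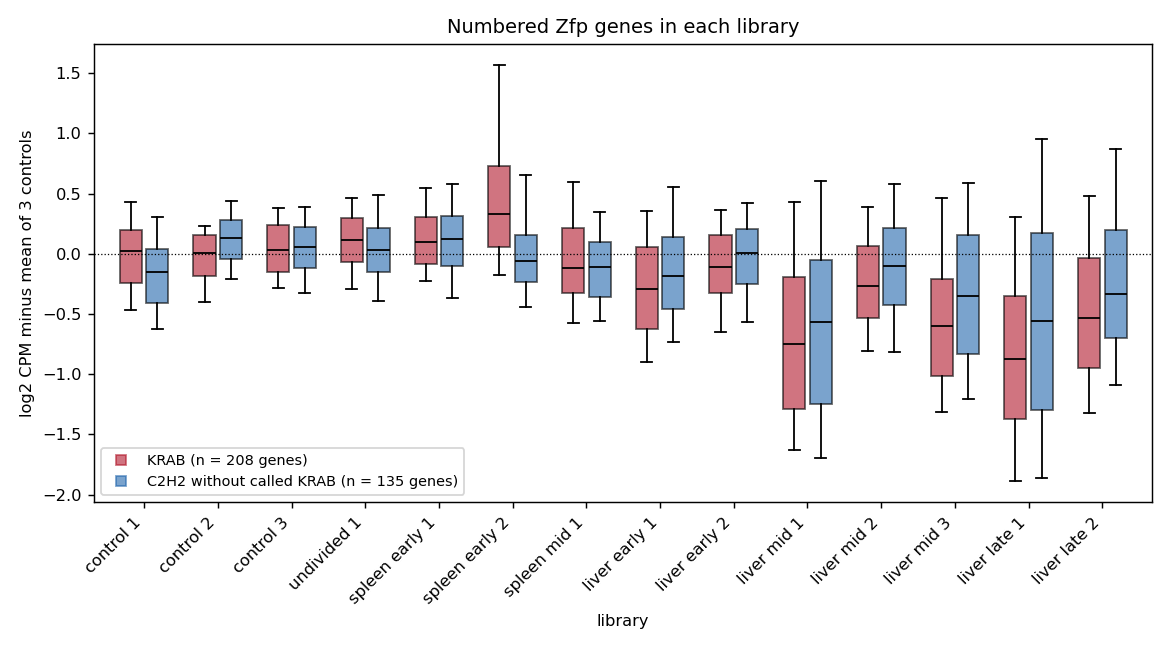
Log2 CPM of each numbered Zfp gene minus its mean over the 3 controls (y axis), in each of 14 libraries (x axis), for 208 KRAB genes (red) and 135 C2H2 genes without a called KRAB domain (blue). Boxes span the quartiles with the median as a line, and whiskers run from the 10th to the 90th percentile of genes. The KRAB medians are -0.87 and -0.54 in the late libraries and between 0.00 and 0.03 in the controls.

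The low libraries were found in both sequencing series, named TG and XC in the sample titles and taken as the batch. The series TG held control 1, mid library 1 and late library 1. Within TG the median difference late minus control was -0.72 (1 against 1 library), and within XC it was -0.51 (1 against 2). The difference was below 0 in both series for 237 of 351 genes (67.5%), against 42.2% of all genes. All 120 calls had the same sign within each series, but so had all 5289 calls over all genes. The calls were made on these same libraries, so this agreement is no separate support. Hepatocyte RNA was highest in mid library 1 (131 CPM) and late library 1 (200 CPM), both of TG, which also had the lowest Zfp medians. In mid libraries 2 and 3 and late library 2, of XC, it was 17.8, 2.49 and 59.8 CPM, with medians of -0.21, -0.49 and -0.45. Series and hepatocyte RNA cannot be told apart for the TG libraries, and a link with the medians was not tested.

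KRAB genes supplied 64 of the 105 falls. Of 208 KRAB genes 4 rose late (median -0.70), and of 135 C2H2 genes without a called KRAB domain 39 fell and 10 rose (median -0.40). The share that fell was near alike, 30.8% and 28.9%, and both are above the 14.4% of all genes. On the scale of log2 CPM minus the control mean, the KRAB medians were -0.87 and -0.54 in late libraries 1 and 2 and those of the other C2H2 genes -0.56 and -0.33. Levels differed between the classes, which changes how often a fall can be called. Among the 88 genes with the highest mean log2 CPM 11 of 19 KRAB genes and 24 of 65 others fell, and among the 88 with the lowest 7 of 63 and 4 of 24.

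Genes with many fingers were lower than genes with few. Of 44 genes with 1 to 4 fingers 5 fell and 6 rose late (median -0.19). With 5 to 9 fingers 29 of 91 fell and 6 rose (median -0.52). With 10 to 14 fingers 41 of 132 fell and 2 rose (median -0.74), and with 15 or more 28 of 74 fell and 0 rose (median -0.80). Among genes without a called KRAB domain the medians ran -0.16, -0.39, -0.70 and -0.59 over the same steps. Among KRAB genes they ran -0.33, -0.59, -0.75 and -0.87, the first over only 7 genes. The lowering with finger number was therefore seen in both classes, up to the last step of the class without KRAB. These are descriptions, and no test of the trend was made. The 10 genes with no C2H2 finger gave 2 falls and 1 rise. Genes with under 10% of shared words had a median of -0.60 and those with at least 30% one of -0.55.

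**Figure D2:**
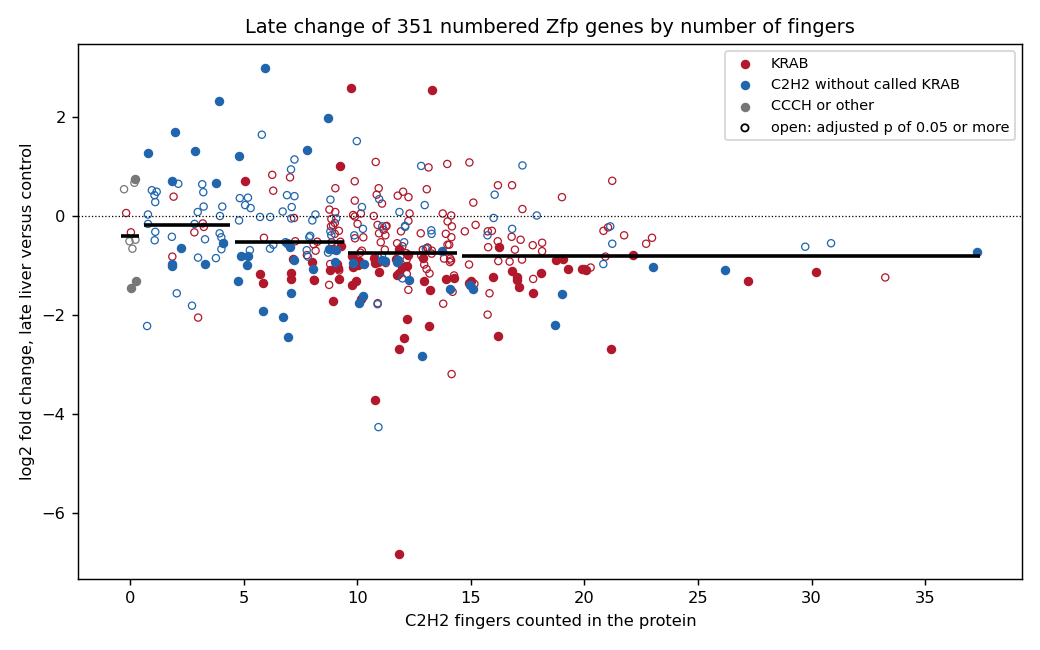
Log2 fold change of late liver against control libraries (y axis) by the number of C2H2 fingers counted in the protein (x axis, spread sideways for visibility) for 351 genes. Filled points have an adjusted p under 0.05, colours give the class and black bars are medians over 0, 1 to 4, 5 to 9, 10 to 14 and 15 or more fingers. The bar falls from -0.19 at 1 to 4 fingers to -0.80 at 15 or more, and the lowest point is Zfp108, which had no read in either late library.

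Many of these genes are neighbours. With starts less than 250 kb apart taken as 1 cluster, 9 clusters held 7 or more of the genes, 110 in all, and 132 genes were alone. Late, 34 of the 110 clustered genes (30.9%) fell and 5 rose (median -0.76). Of the 132 lone genes 37 (28%) fell and 8 rose (median -0.48). Both shares of falls were near the 29.9% of all numbered Zfp genes.

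The largest cluster, from Zfp712 to Zfp273 on chromosome 13 (GRCm38, 67038596 to 67827002), held 23 genes, all with a KRAB domain. All 23 late fold changes were below 0 (-1.56 to -0.16, median -0.86). The 6 that passed the test were Zfp595, Zfp712, Zfp729a, Zfp729b, Zfp738 and Zfp874b. At 26.1% this share was not above the 29.9% of all numbered Zfp genes. The log2 CPM of Zfp729a was 5.52, 4.99 and 4.70 in controls and 3.81 and 3.81 late (log2 fold change -1.32, SE 0.32, adjusted p = 0.0134). Zfp738 was even across the controls at 4.60, 4.63 and 4.66 and had 3.42 and 3.65 late. Of their words 26.6% and 21.5% occur in other genes, and in both the groups did not overlap.

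On chromosome 17 (32765496 to 33394641) a cluster of 12 KRAB genes from Zfp871 to Zfp101 gave 8 falls and 1 rise late, with a median of -1.25. Zfp871, the most abundant of them by count, had a log2 CPM of 7.06, 7.31 and 6.96 in controls and 5.49 and 6.01 late (log2 fold change -1.32, SE 0.25, adjusted p = 0.00716). Zfp952 went from 4.45, 4.37 and 4.34 to 3.10 and 3.13. Zfp870, in the same cluster, rose from -0.12, -0.17 and 0.17 to 2.36 and 2.47 (log2 fold change 2.58, SE 0.55, adjusted p = 0.00922). Neighbours in 1 cluster therefore moved in opposite directions. In the other clusters between 0 and 7 genes fell, with medians of -0.92 to -0.18. Genes of a cluster share sequence and position, so they are not independent.

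**Figure D3:**
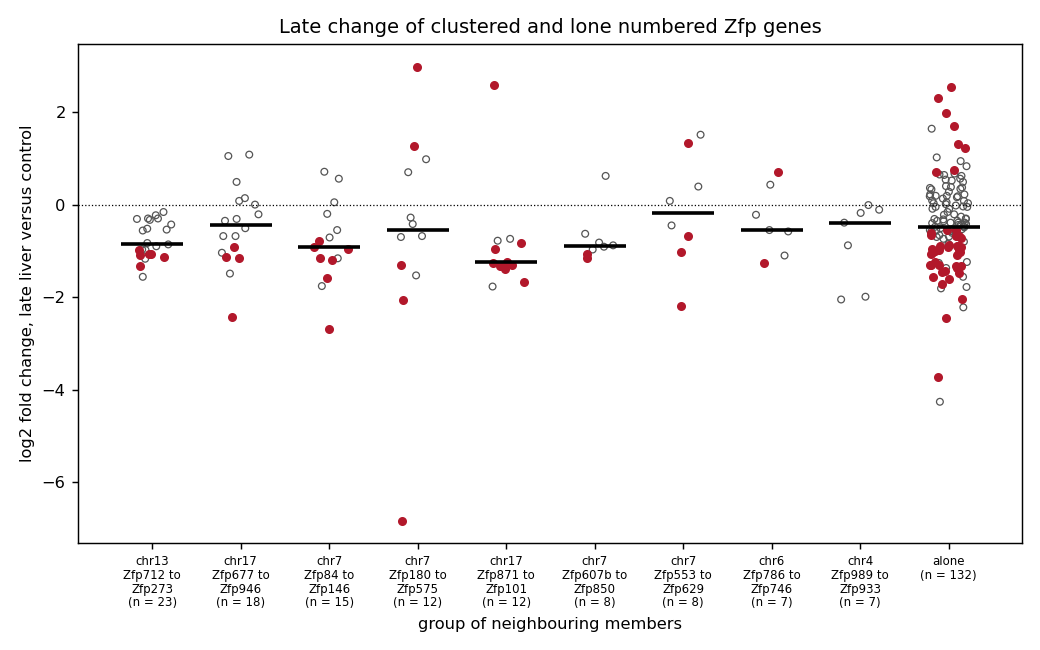
Log2 fold change of late liver against control libraries (y axis) for the genes of 9 clusters with 7 or more members, named by their first and last gene, and for 132 genes with no neighbour within 250 kb (x axis). Filled red points have an adjusted p under 0.05 and bars are medians. All 23 genes of the chromosome 13 cluster lie below 0, and the point at 2.58 in the Zfp871 to Zfp101 cluster is Zfp870.

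By rule the 8 largest falls were examined among the 72 genes that passed the test, averaged 3 or more in log2 CPM over the libraries and did not overlap the controls. They were Zfp658, Zfp280d, Zfp652, Zfp386, Zfp955b, Zfp945, Zfp597 and Zfp292. Zfp658, a KRAB gene with 21 fingers on chromosome 7, fell most. Its log2 CPM was 3.61, 4.28 and 4.39 in controls, 4.31 in undivided cells, 1.30, 2.82 and 2.49 mid and 0.37 and 2.10 late (late log2 fold change -2.68, SE 0.44, adjusted p = 0.00488). All mid and late libraries were below all controls. Of the early liver libraries, library 1 was at 2.78 and library 2 at 4.22, the former below and the latter within the controls.

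Zfp280d was among the 6 highest of the genes in controls by TPM, but not by counts. In log2 CPM Zfp292, for one, lay above it in each control (6.90, 7.51 and 7.60). Its log2 CPM was 6.89, 6.19 and 6.81 in controls, 6.12 and 7.94 early, 4.20, 5.49 and 4.94 mid and 3.41 and 4.85 late (late log2 fold change -2.44, SE 0.61, adjusted p = 0.0179). In TPM Zfp280d was at 203, 110 and 233 in controls and 2.59 and 16.4 late, a wider gap than in counts. How its reads were divided among its transcripts was not tested. Zfp652, which encodes a C2H2 repressor, went from 5.81, 6.22 and 5.78 in controls to 3.44 and 4.22 (-2.03, SE 0.49, adjusted p = 0.0153).

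The KRAB genes Zfp386 and Zfp945 lay below all controls in all 7 liver libraries. Zfp386 had 6.12, 5.90 and 5.71 in controls, 4.35 and 5.31 early, 4.41, 4.71 and 3.86 mid and 3.78 and 4.53 late (-1.72, SE 0.36, adjusted p = 0.00899). Zfp945 had 5.97, 5.28 and 5.26 in controls, 4.18 and 4.75 early, and 4.08 and 3.92 late (-1.56, SE 0.31, adjusted p = 0.00739). For both genes the day 14 spleen library, at 5.27 and 4.69, also lay below the controls, as a single library with no test. Zfp597 went from 3.81, 3.99 and 4.08 in controls to 2.05 and 2.63 late (-1.56, SE 0.23, adjusted p = 0.0043). Zfp955b had a late log2 fold change of -1.68 (SE 0.34, adjusted p = 0.00784), with 63.5% of its words shared with other genes, and its neighbour Zfp955a, at 66% shared, had -1.40.

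The promoters of such genes are shown as the 150 bases before the start site, from RefSeq (GRCm38.p6), for the largest fall, Zfp658 (chr7:43562220-43562369, plus strand), for Zfp945 (chr17:22867135-22867284, minus strand) and Zfp597 (chr16:3872375-3872524, minus strand), 2 falls with an ETS-type match, and for Zfp207 (chr11:80383129-80383278, plus strand), a rise with a YY1-type match. Capitals mark CCGGAAG (ETS type), AAGATGGCG (YY1 type) and GGGCGGG (SP type) on either strand, and overlapping matches run together.
Zfp658: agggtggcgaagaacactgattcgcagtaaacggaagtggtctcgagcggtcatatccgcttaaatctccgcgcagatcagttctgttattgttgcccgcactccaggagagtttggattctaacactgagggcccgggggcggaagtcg
Zfp945: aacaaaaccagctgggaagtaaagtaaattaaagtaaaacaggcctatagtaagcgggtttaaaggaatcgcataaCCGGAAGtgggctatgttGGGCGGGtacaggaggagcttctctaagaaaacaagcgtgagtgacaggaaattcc
Zfp597: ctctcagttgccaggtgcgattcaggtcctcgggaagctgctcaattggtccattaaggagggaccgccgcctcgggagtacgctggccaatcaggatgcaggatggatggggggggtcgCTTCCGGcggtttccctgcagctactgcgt
Zfp207: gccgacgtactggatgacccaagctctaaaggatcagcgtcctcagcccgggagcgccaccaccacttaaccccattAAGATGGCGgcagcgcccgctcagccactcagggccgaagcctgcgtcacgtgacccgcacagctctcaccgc

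RefSeq windows of 300 bases, ending 50 bases after the start, were matched for 290 of the 351 genes and 10845 of all genes tested. CCGGAAG occurred in 20.4% of the windows of genes that fell late, 22.1% of those of all numbered Zfp genes and 17.4% of all windows. The 11 windows of genes that rose late had it in 18.2%. AAGATGGCG was in 5.38% of the windows of genes that fell and 9.09% of those of genes that rose. AAGATGGCG occurred in 3.10% of the Zfp windows and 3.01% of all windows and TTTCCCGC or TTTGGCGC (E2F type) in 3.79% and 2.91%. The E2F type was in 2.15% of the windows of genes that fell and 18.2% of those that rose, 2 windows each. For GGGCGGG these shares were 26.9% and 36.4%. GGGCGGG was in 29.7% of the Zfp windows and in 44.7% of all windows, and the median GC content was 52% for KRAB genes, 60.7% for C2H2 genes without KRAB and 60% for all. The shares of letter matches are descriptions, and a match is not evidence of binding.

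Of the 15 genes that rose late 4 had a KRAB domain, and 7 encoded 4 C2H2 fingers or fewer. The 8 largest rises by the same rule, from 9 eligible genes, were Zfp41, Zfp219, Zfp367, Zfp771, Zfp280b, Zfp324, Zfp330 and Zfp207. Zfp41 had a log2 CPM of 1.54, 2.20 and 2.64 in controls, 3.38, 3.97 and 4.41 mid and 4.02 and 4.58 late (late log2 fold change 2.31, SE 0.28, adjusted p = 0.00313). Zfp219 went from 3.34, 3.95 and 3.08 in controls to 4.42, 4.50 and 4.85 mid and 5.15 and 5.69 late (1.98, SE 0.34, adjusted p = 0.00526). In both genes every mid and late library was above every control.

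Zfp367 rose by a log2 fold change of 1.69 late (SE 0.40, adjusted p = 0.0132), from 2.48, 3.23 and 3.39 to 3.98 and 5.12, and was above all controls in every other library but early liver library 2 (3.32). Zfp771 (1.33, SE 0.35) and Zfp280b (1.22, SE 0.23) rose as well. Without control 1 the value of Zfp771 was 0.85 (adjusted p = 0.0994). Zfp324, the KRAB gene among the 8, had 1.90, 2.71 and 3.05 in controls and 3.55 and 3.41 late (1.0, SE 0.35, adjusted p = 0.0461), and without late library 1 its value was 0.62 (adjusted p = 0.341). Zfp330, which encodes a nucleolar protein, and Zfp207, which encodes a spindle assembly factor that loads Bub3 at kinetochores, rose by 0.75 and 0.71. Zfp207, one of the 6 genes with the highest TPM in controls, moved least among the 8, from 7.49, 7.75 and 7.45 to 8.50 and 8.06 (SE 0.23, adjusted p = 0.0385).

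**Figure D4:**
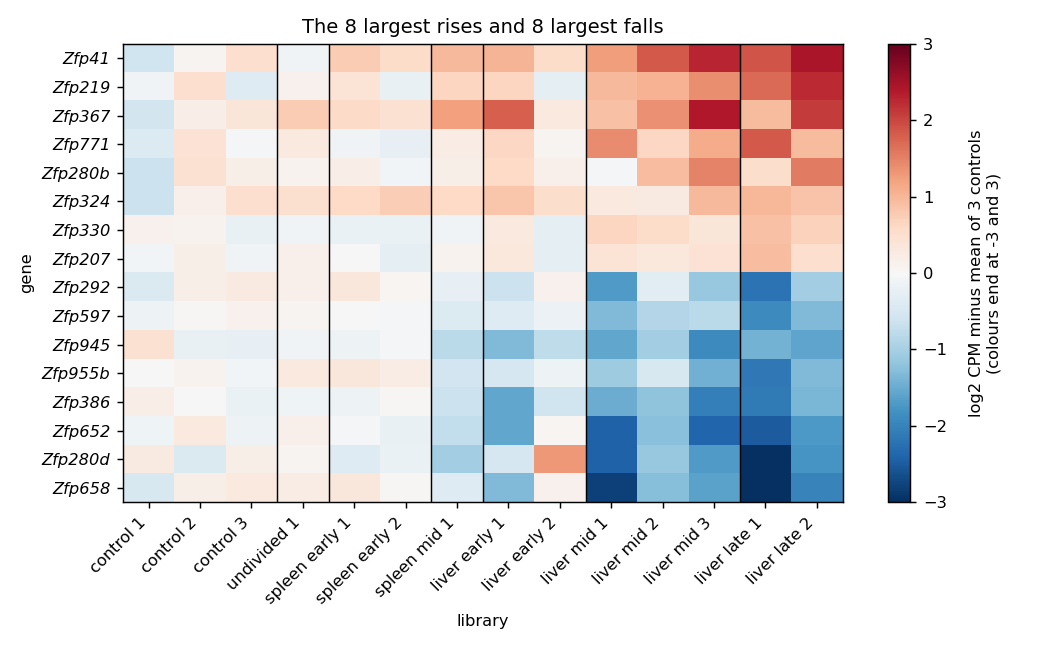
Log2 CPM minus the mean of the 3 controls (colour, blue lower and red higher, ending at -3 and 3) for the 8 largest rises and 8 largest falls in late liver (rows) across 14 libraries (columns), with lines between groups. Most genes stay near the controls in the undivided cells and early spleen libraries, early liver library 1 shows part of the falls that library 2 lacks, and Zfp280d stands out as high in early liver library 2.

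The lowest fold changes of all belonged to genes with few reads in late libraries, but not always in controls. Zfp366, at -4.26, had 275, 470 and 7 counts in controls and 11 and 8 late. Its 2 high values were those of controls 1 and 2, which held more hemoglobin and myeloid RNA. Zfp108, a KRAB gene, had 28, 18 and 11 counts in controls, 3, 8 and 4 mid and 0 in both late libraries, which makes it at least 5-fold lower late when 3 counts per library are taken as the floor. With Zfp108 at that bound the median of the 351 genes stayed at -0.60. Zfp966 had 158, 64 and 45 counts in controls and 3 and 7 late, but 93.9% of its words are shared with other genes.

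In mid liver libraries 82 of 351 genes (23.4%) fell and 11 (3.13%) rose against the same controls, where 11.9% of all genes fell, 17.5% rose and 29.4% did either. The median log2 fold change was -0.46, against -0.07 over all genes. All 3 mid libraries lay below the controls for 127 genes (36.2%, all genes 21.3%) and above for 25 (7.12%, all genes 21.0%). Of KRAB genes 48 fell and 3 rose (median -0.55), and of C2H2 genes without a called KRAB domain 31 fell and 8 rose (median -0.36). In the cluster of 12 genes on chromosome 17 again 8 fell and 1 rose. Left out one at a time, controls 1 and 2 and mid libraries 1 and 3 each brought the calls to 0 among these genes, with 97, 124, 86 and 107 at an unadjusted p under 0.05. In those fits 0% to 0.214% of all genes were called. In the main mid fit 158 of the 351 and 6750 of all 15395 genes had an unadjusted p under 0.05, near alike shares. Without control 3 or mid library 2 there were 69 and 86 calls (22.2% and 23.6% of all genes). The median stayed between -0.56 and -0.40 in these fits. DESeq2's Wald test gave 117 calls (36% of all genes).

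The 5 largest mid falls by the rule were Zfp652 (log2 fold change -1.97, SE 0.42), Zfp658 (-1.92, SE 0.37), Zfp280d (-1.82, SE 0.52), Zfp386 (-1.55, SE 0.31) and Zfp36 (-1.49, SE 0.38). The 5 largest rises were Zfp41 (1.80), Zfp367 (1.61), Zfp219 (1.10), Zfp771 (1.0, and 0.61 without control 1) and Zfp106, which encodes an RNA-binding protein. Zfp106 had 5.90, 6.72 and 6.67 in controls and 6.91, 7.57 and 7.57 mid (0.92, SE 0.21, adjusted p = 0.0159). Late it was at 6.64 and 7.27, which overlapped the controls (0.64, adjusted p = 0.0581). Within each series, though, the late library was above every control. Late and mid share all controls and are given side by side only. Compared directly, late against mid gave 0 calls by edgeR (0% of all genes) and 15 genes at an unadjusted p under 0.05, against 4.99% of all genes. The median was -0.07, and DESeq2 gave 0 calls among the numbered Zfp genes and 53 among all genes.

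The AU-rich element binding proteins did not move together. Zfp36 encodes tristetraprolin, which binds AU-rich elements of cytokine messages and recruits the CCR4-NOT deadenylase. Its log2 CPM was 8.60, 7.31 and 8.06 in controls, 7.16 and 7.67 early, 6.45, 6.97 and 6.24 mid and 6.28 and 7.11 late. It fell mid (-1.49, SE 0.38, adjusted p = 0.0204) and late (-1.32, SE 0.43, adjusted p = 0.04). The mid and late libraries were all below the controls, and early library 1 was too. The late value was -0.79 (adjusted p = 0.198) without control 1, -0.81 (adjusted p = 0.32) without late library 1 and -2.00 (adjusted p = 0.069) without late library 2. Without control 3 it stayed at -1.32, with an adjusted p of 0.0772. The mid value was -0.99 (adjusted p = 0.112) without control 1.

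Zfp36l2 differed widely between the libraries of each group. It was at 8.64, 10.24 and 9.39 in controls, 6.69, 9.09 and 9.12 mid and 7.27 and 10.03 late, with a mid log2 fold change of -1.21 (SE 0.37, adjusted p = 0.0347) and a late one of -0.48 (SE 0.41, adjusted p = 0.367). The lowest value of each of these groups was its TG library. Within each series every mid library was below every control, while late library 2 lay among the controls of its series. Without control 1 the mid value was -0.72 (adjusted p = 0.195). Zfp36l1 had 6.55, 6.53 and 6.06 in controls and 7.16 and 6.81 late, and its late log2 fold change of 0.54 did not pass the test (SE 0.33, adjusted p = 0.218). Of 11 CCR4-NOT genes 2 (18.2%) rose late, Cnot9 (1.37, SE 0.28) and Cnot11 (0.85, SE 0.19). Of the rest, 1 (9.09%) fell, Cnot4 (-0.83, SE 0.21), and 8 did not pass. These shares were not above those of all genes, of which 20.0% rose and 14.4% fell.

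**Figure D5:**
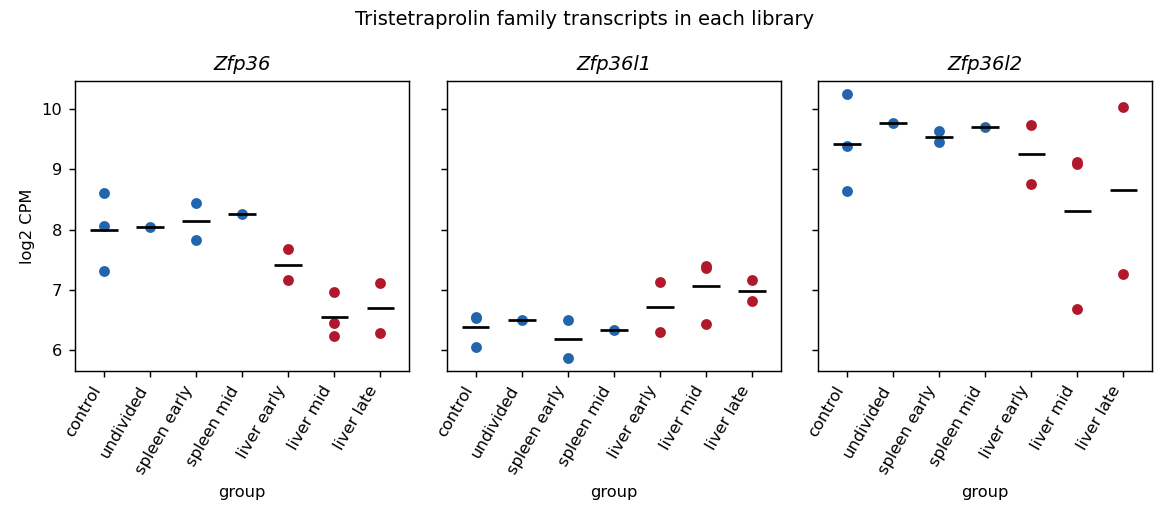
Log2 CPM (y axis) of Zfp36, Zfp36l1 and Zfp36l2 in each library (points, blue spleen and red liver) by group (x axis), with bars at the group means. Zfp36 lies between 6.24 and 7.11 in mid and late liver and at 7.31 or more in controls, and Zfp36l2 spans 7.27 to 10.03 within the late group.

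Of 7 genes listed for known roles in lymphocytes 6 were measured, of which 2 (33.3%) fell late and 0 rose. That is near the numbered Zfp genes as a whole, of which 29.9% fell and 4.27% rose. Zfp831 had 4.53, 5.35 and 4.96 in controls, 3.09, 4.62 and 4.07 mid and 3.46 and 4.25 late (late -0.96, SE 0.31, adjusted p = 0.0353). Zfp148, which encodes a factor that binds GC-rich promoters, went from 6.42, 6.61 and 6.75 to 5.61 and 6.30 (-0.55, SE 0.19, adjusted p = 0.0486). This call lay next to the threshold and was lost whichever late or control library was left out, with -0.35 (adjusted p = 0.251) without control 1. Zfp683, which encodes Hobit, a factor of tissue-resident lymphocytes, was low, with a log2 CPM between -0.42 and 1.75 over the liver libraries and -0.05 and 1.35 over controls, and gave no call (late 0.48, SE 0.59, adjusted p = 0.541). Zfp335, needed for T cell maturation, Zfp91 and Zfp318 did not pass late (-0.36, 0.37 and -0.42). Zfp318 had its lowest value in early liver library 1, at 3.08 against 4.67 to 5.50 in controls.

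Genes of imprint and retroelement silencing fell late in 2 of 3 measured cases, where 29.9% of all numbered Zfp genes fell. Zfp445, which protects imprints, had 5.69, 6.05 and 6.20 in controls, 5.12, 6.18 and 5.71 mid and 4.66 and 5.08 late (late -1.02, SE 0.20, adjusted p = 0.0073). Zfp809, which recruits silencing to retroviral sequences, had 4.83, 4.59 and 4.73 in controls and 3.89 and 3.82 late (-0.87, SE 0.21, adjusted p = 0.0123). Mid, neither passed (-0.30 and -0.33). The third, Zfp932, with 48.1% of its words shared, gave -0.18 late (adjusted p = 0.631).

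The partners of KRAB proteins went both ways. Of 14 corepressor and HUSH genes 4 rose late: Cbx5 (2.27, SE 0.43) and Cbx3 (1.11, SE 0.20), which encode heterochromatin proteins, Hdac1 (1.24, SE 0.23) and Trim28 (1.14, SE 0.25, adjusted p = 0.00993). The 3 that fell were Fam208a, which encodes the HUSH subunit TASOR (-1.51, SE 0.27, adjusted p = 0.00558), Atf7ip, a partner of Setdb1 (-1.0, SE 0.27), and Chd3 (-0.71, SE 0.21). Setdb1 itself gave -0.29 (adjusted p = 0.206). Late, the rises were 28.6% and the falls 21.4% of the 14 genes, where 20.0% of all genes rose and 14.4% fell. Mid, 6 (42.9%) rose and 1 (7.14%) fell, where 17.5% of all genes rose and 11.9% fell. Trim28, the common partner, was at 6.88, 7.07 and 6.73 in controls, 8.22, 7.54 and 7.63 mid and 8.34 and 7.88 late. A link between its level and that of the KRAB genes was not tested.

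Among 8 genes of RNA handling, ribosomes and the spindle 1 rose late (Zfp207, above) and 1 fell (12.5% each). Of all numbered Zfp genes 4.27% rose and 29.9% fell. The fall was Zfp638, a chromatin and RNA-binding protein tied to silencing by HUSH, from 6.24, 6.89 and 6.99 in controls to 5.13 and 6.00 (-1.0, SE 0.21, adjusted p = 0.00892). It fell mid as well (-0.71, SE 0.18). Zfp598, a ubiquitin ligase of collided ribosomes, Zfp622, a factor of large subunit maturation, and Zfp593, Zfp326 and Zfp830 gave 0.28, 0.19, 0.42, -0.32 and -0.49, and none passed. Zfp622 stayed between 6.44 and 7.06 in all 14 libraries.

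Of 12 measured regulators of transcription and chromatin 4 (33.3%) fell late and 0 rose, near the 29.9% and 4.27% of all numbered Zfp genes. Zfp292 had 6.90, 7.51 and 7.60 in controls, 5.64, 6.99 and 6.21 mid and 5.12 and 6.29 late (late -1.48, SE 0.30, adjusted p = 0.0076). Zfp281, which binds G-rich promoters, went from 5.98, 6.32 and 6.54 to 4.79 and 5.59 (-0.97, SE 0.23, adjusted p = 0.0122). The others were Zfp687 (-0.67, SE 0.21) and Zfp451, a SUMO ligase gene (-0.68, SE 0.21). For both, late library 2 lay closer to the controls than late library 1. For Zfp687 it lay among them, at 6.01 against 5.45, 6.70 and 6.31, so that the groups overlapped. Within its own series, XC, it was below both controls. The value of Zfp451 was -0.37 (adjusted p = 0.194) without control 1 and -0.44 (adjusted p = 0.31) without late library 1. Of the 8 that did not pass, Zfp384 (0.03) and Zfp410 (0.22) were near 0, Zfp143, a promoter-bound activator of housekeeping genes, gave -0.53 (adjusted p = 0.0741), and Zfp131 gave 0.16 with 7.23 in late library 1 and 5.51 in late library 2. Zfp609 gave 0.52, Zfp64 0.33 and Zfp217 -0.40. Zfp608, with few reads, had -2.22 (SE 1.20, adjusted p = 0.166), and its log2 CPM of 0.27, -0.69 and -2.46 in controls and -1.49 and -3.21 late overlapped.

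At day 7 no numbered Zfp gene passed by edgeR, and a few did by DESeq2. Early liver against control gave 0 calls by edgeR (0% of all genes) and 2 by DESeq2 (401 of all genes, 2.6%), with 22 of 351 genes at an unadjusted p under 0.05, against 10.9% of all genes. The median was -0.27. The 2 early liver libraries differed, with 863 and 204 CPM of proliferation genes and 242 and 201 genes below the control mean. With library 2 left out 22 genes were called, 15 lower and 7 higher, where 12.5% of all genes were. The 2 early spleen libraries gave 0 calls against control by edgeR (0% of all genes), 1 by DESeq2 (14 of all genes) and 11 genes at an unadjusted p under 0.05, against 6.26% of all genes, with a median of 0.03. Without early spleen library 1 there were 2 calls, both higher, where 1.08% of all genes were called, 163 higher and 4 lower.

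Within day 7, liver against spleen gave 0 calls by edgeR (0% of all genes), 1 by DESeq2 (60 of all genes) and 28 genes at an unadjusted p under 0.05, where 9.02% of all genes reached that level. The median was -0.31 and 280 of 351 values were below 0. Without early liver library 2 there were 6 calls, 4 lower and 2 higher, where 6.29% of all genes were called, 207 lower and 761 higher. The undivided cells of day 18, a single library with no test, had 134 of 351 genes below the control mean. The day 14 spleen library had 216 below, and its proliferation genes summed to 741 CPM.

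Among other zinc finger families, the Zbtb and Zscan genes had medians near that of the numbered Zfp genes. Of 39 Zbtb genes 10 (25.6%) fell and 3 (7.69%) rose late (median -0.58), and of 19 Zscan and Zkscan genes 5 (26.3%) fell and 1 (5.26%) rose (median -0.59). Of 20 Zc3h genes, which encode CCCH fingers, 3 (15%) fell and 2 (10%) rose, with a median of -0.30 late and -0.08 mid. Of all 13852 protein-coding genes tested 15% fell and 21.4% rose late, with a median of -0.02, so that the share of Zc3h genes that fell was that of the background. No test of the difference between families was made.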

How the data were processed

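TCRTg101 were sorted by flow cytometry, and low-input RNA-seq was run on an Illumina platform in 2 batches. Per the labels' processing notes and the paper's methods, the authors used bcl2fastq, kallisto and the mm10 (GRCm38) genome. The deposited tables give estimated counts and TPM for each transcript, the TPM normalized by the authors for length and depth. Kallisto divides reads among similar transcripts, which affects duplicated genes.

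From these 26 run tables, transcripts were matched to GENCODE vM21 (99% to 99.3% of counts), counts were summed per gene and library over repeat runs, and rounded. TMM factors were 0.724 to 1.22, and log2 CPM used a prior count of 2. edgeR 4.0.16 in R 4.3.3 (quasi-likelihood, robust, two-sided) fitted group and series over 14 libraries, so that all groups shared 1 spread estimate. Benjamini-Hochberg adjustment ran over all 15395 genes, with a threshold of 0.05. DESeq2 1.42.0 was an alternative. The fit was tested on simulated data. Groups of 1 library gave values only. The labels do not say that libraries came from separate mice, so p-values measure the spread between these libraries, which may be technical. Reads are not independent molecules.

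KRAB domains and fingers were read from coding sequences, and a KRAB domain was called at 7 of 9 fixed letters. Named genes were all measured members of the lists, the 8 largest rises and falls late and 5 mid (called genes that averaged 3 or more in log2 CPM and did not overlap the controls), the 6 highest by TPM in controls and genes next to the count rule; Zfp871, Zfp952, Zfp870, Zfp595, Zfp712, Zfp729a, Zfp729b, Zfp738, Zfp874b, Zfp955a, Zfp108, Zfp966 and Zfp366 were added after their values were seen. Members and lists were chosen with earlier results of these data known. Alternatives were other scalings, filters, controls, libraries, runs and tools, and each library of the compared groups left out.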

Additional observations from a re-analysis of the deposited data

Results flagged for a closer look

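For 12 genes both early spleen libraries lay above all controls while both early liver libraries lay below them (3.42% of the 351), where 47 of all 15395 genes (0.305%) did. The opposite pattern was found in 0 of the 351 and in 36 of all genes. The difference was not significant for any of them after adjustment (edgeR, smallest adjusted p over all genes 0.544). The log2 fold changes of early liver against early spleen were -1.24 for Zfp738, -1.09 for Zfp994, -0.94 for Zfp974, -0.67 for Zfp758, -0.67 for Zfp955a, -0.66 for Zfp599, -0.60 for Zfp119a, -0.60 for Zfp955b, -0.52 for Zfp329, -0.49 for Zfp68, -0.48 for Zfp429 and -0.31 for Zfp942. Early spleen library 2, which stood apart in the number of genes detected, had 6.08 log2 CPM of Zfp738 against 4.70 in early spleen library 1.

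Outside the protein-coding genes, 5 numbered Zfp genes annotated as transcribed pseudogenes passed the same count rule. Zfp862-ps had 74, 159 and 114 counts in controls, 427 and 147 in early, 382, 410 and 307 in mid and 437 and 796 in late liver libraries (late log2 fold change 2.84, edgeR adjusted p = 0.00383). The other 4 did not pass late, with log2 fold changes of -0.38 for Zfp125, 2.44 for Zfp133-ps, -0.36 for Zfp783 and -0.86 for Zfp939.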

How the results depend on the processing

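The members' median kept its sign in all alternatives run for late and mid against control. Numbers of calls did not keep their size. With each library of the 2 groups compared left out in turn, calls ran from 0 to 89 late, 0 to 86 mid, 0 to 22 early, 0 to 2 for early spleen and 0 to 6 for early liver against early spleen, and the medians from -0.64 to -0.50 late and -0.56 to -0.40 mid. Library size alone gave medians of -0.91 late and -0.68 mid and 140 mid calls (30.4% of all genes called). Without the series term there were 55 late and 17 mid calls, where 19.1% and 11.5% of all genes were called. With no count filter there were 3 early, 4 early spleen and 5 early liver against spleen calls among the 351. Of all genes 3.95%, 1.96% and 3% were then called, so these genes were not called more often. By DESeq2 there were 2, 1 and 1, where 2.6%, 0.0909% and 0.39% of all genes were called. With the day 18 control only, a choice made after the data were seen, calls were 0 late and 0 mid, with medians of -0.49 and -0.39. The cause of these shifts was not tested, but dropping libraries leaves fewer samples. Leaving out early spleen library 2, also chosen after the data were seen, gave 121 late and 90 mid calls. The planned fit of spleen, control, undivided and early liver groups held 9 libraries.

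Of 45 calls of named genes, 45 kept their side of the threshold by RLE factors and by DESeq2, 20 without the series term, 33 on counts scaled from TPM and 0 with the day 18 control only. Without late library 2, 0 of 25 late calls were kept, and without mid library 1 or 3, 0 of 20 mid calls. No named call changed sign. No paired analysis was possible because the labels give the libraries of different groups no shared replicate numbers. Depth limits the genes with few reads, such as Zfp108 and Zfp966.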

Other observations

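The day 0 library primed with oligo-dT, which took no part in the comparisons, had 23023906 counts in matched genes. The numbered Zfp genes took 0.96% of them, and 335 of the 351 reached 10 counts. For Zfp969, below the count rule, 79, 80 and 11 counts were found in mid library 1, late library 1 and late library 2, and 0 to 3 in every other library. Of its 31-base words 100% occur in other genes, as do 93.9% of those of Zfp966, which had 30, 3 and 7 counts in the same libraries. The division of reads among such copies is uncertain, so these counts may not reflect changes of either gene.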
